A study of Mus musculus with 12 samples.

Results

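The genes described here encode the regulators that decide which exons enter a messenger RNA: the SR proteins, the Tra2 proteins, the hnRNPs, the CLK kinases and the cold-inducible RNA-binding proteins Cirbp and Rbm3. Members were taken by symbol (Srsf followed by digits, any Hnrnp gene that is not a pseudogene, and 8 genes by name) where the deposited tables list a protein-coding transcript. This gave 39 of the 56065 genes listed: 20 hnRNPs, 11 SR proteins, 4 CLK kinases, 2 Tra2 proteins and 2 cold-inducible proteins. Together they have 359 transcripts, of which 159 are annotated as coding, 49 as nonsense-mediated decay (NMD), 43 as other classes and the rest as retained intron. Retained-intron transcripts were listed for 30 members, NMD transcripts for 27, and at least 1 of these classes for 32.

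RNA came from snap-frozen livers of mice carrying a floxed Ahr allele, with 4 libraries in each of 3 groups. From 8 weeks of age and for 20 weeks, the MD+CA group ate a diet that models metabolic dysfunction-associated steatohepatitis, in which fat gave 40 kcal%, fructose gave 20 kcal% and cholesterol made up 2%. It was also injected into the peritoneum 3 times a week with cinnabarinic acid, a tryptophan metabolite, at 12 mg/kg in 0.2% DMSO in saline. The MD group received the same diet, with injections of 0.2% DMSO in saline alone. The CD group received a control diet with 10 kcal% fat for the same time, and the labels do not say whether it was injected. All groups carried the floxed allele, and no Cre line is named. The labels do not state outright that each library is a separate mouse or at what hour livers were taken. If libraries shared mice, the p-values would measure technical spread only. Although the labels say male, all 12 libraries held 5122 to 12865 reads of the female-specific RNA Xist and 0 reads of the Y-linked genes Ddx3y, Eif2s3y, Kdm5d and Uty.

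Splicing regulators act against and through each other. SR proteins bind exonic enhancers through RNA-recognition motifs and recruit the splicing machinery through a tail rich in arginine and serine. CLK kinases phosphorylate that tail and thereby release SR proteins from storage in nuclear speckles. The hnRNPs coat nascent transcripts and often oppose exon inclusion, while Tra2 proteins act as enhancer-bound activators. Many of these genes regulate their own output: an exon with an early stop codon, called a poison exon, is included or a coding exon is skipped, and the transcript is then a target of NMD. Others hold back transcripts with an unspliced intron in the nucleus. Cirbp and Rbm3 bind RNA and are known for their induction by mild cold.

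The NMD transcripts shown here skip or gain 1 internal exon relative to the leading coding transcript of their gene. A match of all 359 transcripts by identifier and length to the GENCODE M21 annotation of build GRCm38 located these exons. Outside Clk1 the lengths of the paired transcripts differ by other amounts than that exon, so these pairs also differ elsewhere. In Clk1, a kinase that phosphorylates SR proteins, the NMD transcript Clk1-210 skipped an exon of 91 bases (chr1:58420121-58420211, minus strand) that Clk1-201 contains, and the next exon (from chr1:58419713-58419733) then reached a stop codon after 21 bases. In the paralogous kinase Clk2, the NMD transcript Clk2-204 skipped an exon of 88 bases (chr3:89169615-89169702, plus strand) that Clk2-203 contains, and the next exon reached a stop codon after 12 bases. Neither length is a multiple of 3, so skipping shifts the reading frame. Each sequence is written 5′ to 3′ on the strand of the gene, in lower case with the stop codon in capitals. The skipped exons hold no capitals.
Clk1 skipped exon: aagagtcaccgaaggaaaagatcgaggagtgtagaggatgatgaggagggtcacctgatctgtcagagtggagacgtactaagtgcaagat
Clk1 next exon in Clk1-210 up to the stop: atgaaattgttgatacttTAG
Clk2 skipped exon: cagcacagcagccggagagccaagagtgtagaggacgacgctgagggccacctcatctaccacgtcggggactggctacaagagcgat
Clk2 next exon in Clk2-204 up to the stop: atgaaattgTAA
Both skipped exons share a run of 12 bases (gagtgtagagga), and both next exons open with the same 10 bases (atgaaattgt).

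The other NMD transcripts shown gain an exon that carries the stop codon. Srsf3-201, of the SR protein Srsf3, gained an exon of 456 bases whose first 34 bases (chr17:29039454-29039487, plus strand) end in the stop. Hnrnpl-213, of Hnrnpl, a CA-repeat-binding hnRNP, gained an exon of 70 bases whose first 59 bases (chr7:28817335-28817393, plus strand) end in the stop. Tra2b-206, of the splicing activator Tra2b, gained an exon of 276 bases whose first 81 bases (chr16:22259181-22259261, minus strand) end in the stop. The paralog Tra2a has a corresponding transcript, Tra2a-202, with an added exon of 306 bases and a stop after 144 bases (chr6:49252965-49253108, minus strand). They are shown because the TPM share of the transcripts with these poison exons differed between groups (Srsf3, Hnrnpl) or was high in all groups (Tra2a, Tra2b).
Srsf3-201 added exon up to the stop: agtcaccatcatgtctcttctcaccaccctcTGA
Hnrnpl-213 added exon up to the stop: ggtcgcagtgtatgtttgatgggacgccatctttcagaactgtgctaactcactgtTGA
Tra2b-206 added exon up to the stop: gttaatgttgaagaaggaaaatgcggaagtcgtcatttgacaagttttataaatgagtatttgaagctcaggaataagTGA
Tra2a-202 added exon up to the stop: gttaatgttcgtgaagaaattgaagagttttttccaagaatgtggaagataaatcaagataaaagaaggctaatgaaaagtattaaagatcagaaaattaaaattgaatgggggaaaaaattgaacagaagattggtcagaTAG

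Library totals ran from 9089586 to 14492587 reads assigned to transcripts, and the members took 0.541 to 0.935% of them. The libraries differed in a property that the groups do not define. The length allowance, which is the transcript length less the effective length in the deposited tables and follows fragment length, was 227, 275, 270 and 276 bases in MD+CA, 230, 221, 261 and 253 in MD and 246, 268, 280 and 258 in CD. The 3 shortest allowances were thus those of MD replicates 1 and 2 and MD+CA replicate 1. MD replicate 2 also had the highest share of mitochondrial reads, at 17.5%, against 4.97 to 10.7% in the other 11. Where stated, results below are also given with the allowance as a covariate or without these 3 libraries. In CPM (read counts scaled to library size with TMM factors), 6 Kupffer cell markers summed to 290 to 649.8 in MD+CA, 135 to 237 in MD and 177 to 231 in CD. The 6 hepatocyte markers summed to 47731 to 64923 in MD+CA, 35114 to 62132 in MD and 55006 to 70795 in CD. The 5 stellate cell markers summed to 84.1 to 172 in MD+CA, 141 to 209 in MD and 91.4 to 122 in CD, so that MD lay above CD in every library. None of these markers was at 0 in all libraries, and the sums of the other 5 marker lists overlapped between all groups. Their part in the results was not tested, and in whole liver RNA fewer cells of a type and less RNA per cell cannot be told apart.

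Levels differed widely between members. On the TPM scale, which accounts for transcript length, Hnrnpa2b1, an A/B-type hnRNP that binds nascent and exported transcripts, stood highest, with 1098 ± 279 TPM in MD+CA, 601 ± 261 in MD and 1081 ± 293 in CD (SD, n = 4 each). Srsf5, an SR protein, followed with 824 ± 331 TPM in MD+CA, 557 ± 115 in MD and 1125 ± 366 in CD. Hnrnpa3, a relative of Hnrnpa2b1, ranged from 275 to 685 TPM in MD+CA, from 109.7 to 267 in MD and from 275 to 816 in CD. All 3 genes had their lowest mean in MD, and on this scale only Hnrnpa3 separated MD from both other groups. At the low end Srsf12 lay between 0 and 0.127 TPM in every library and failed the read filter, so 38 members were tested.

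No member passed edgeR's test at the gene level in any comparison. With edgeR's quasi-likelihood test and Benjamini-Hochberg adjustment over 13631 genes, 0 of 38 members passed an adjusted p of 0.05 in MD+CA against MD, where 2.71% of all genes passed. The same count of 0 held in MD against CD, where 0.088% of genes passed, and in MD+CA against CD, where 0.528% passed. At an unadjusted p under 0.05, 11 members (23.2% of all genes), 16 (19.9%) and 1 (10.5%) passed in these comparisons. DESeq2 called 4 members in MD+CA against MD (Hnrnpa3, Hnrnpab, Clk3, Clk4), where it called 8.36% of all genes with an adjusted p. It called 5 in MD against CD (Hnrnpa3, Hnrnpab, Hnrnpd, Hnrnpdl, Hnrnpul1), where it called 4.82%, and 0 in MD+CA against CD, where it called 2.23%. Limma voom with sample weights called 0 (2.99% of all genes), 1 (2.74%) and 0 (1.4%). Each pair of comparisons shares a group (MD, CD or MD+CA), so mirrored values between comparisons are not separate evidence.

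**Figure D1:**
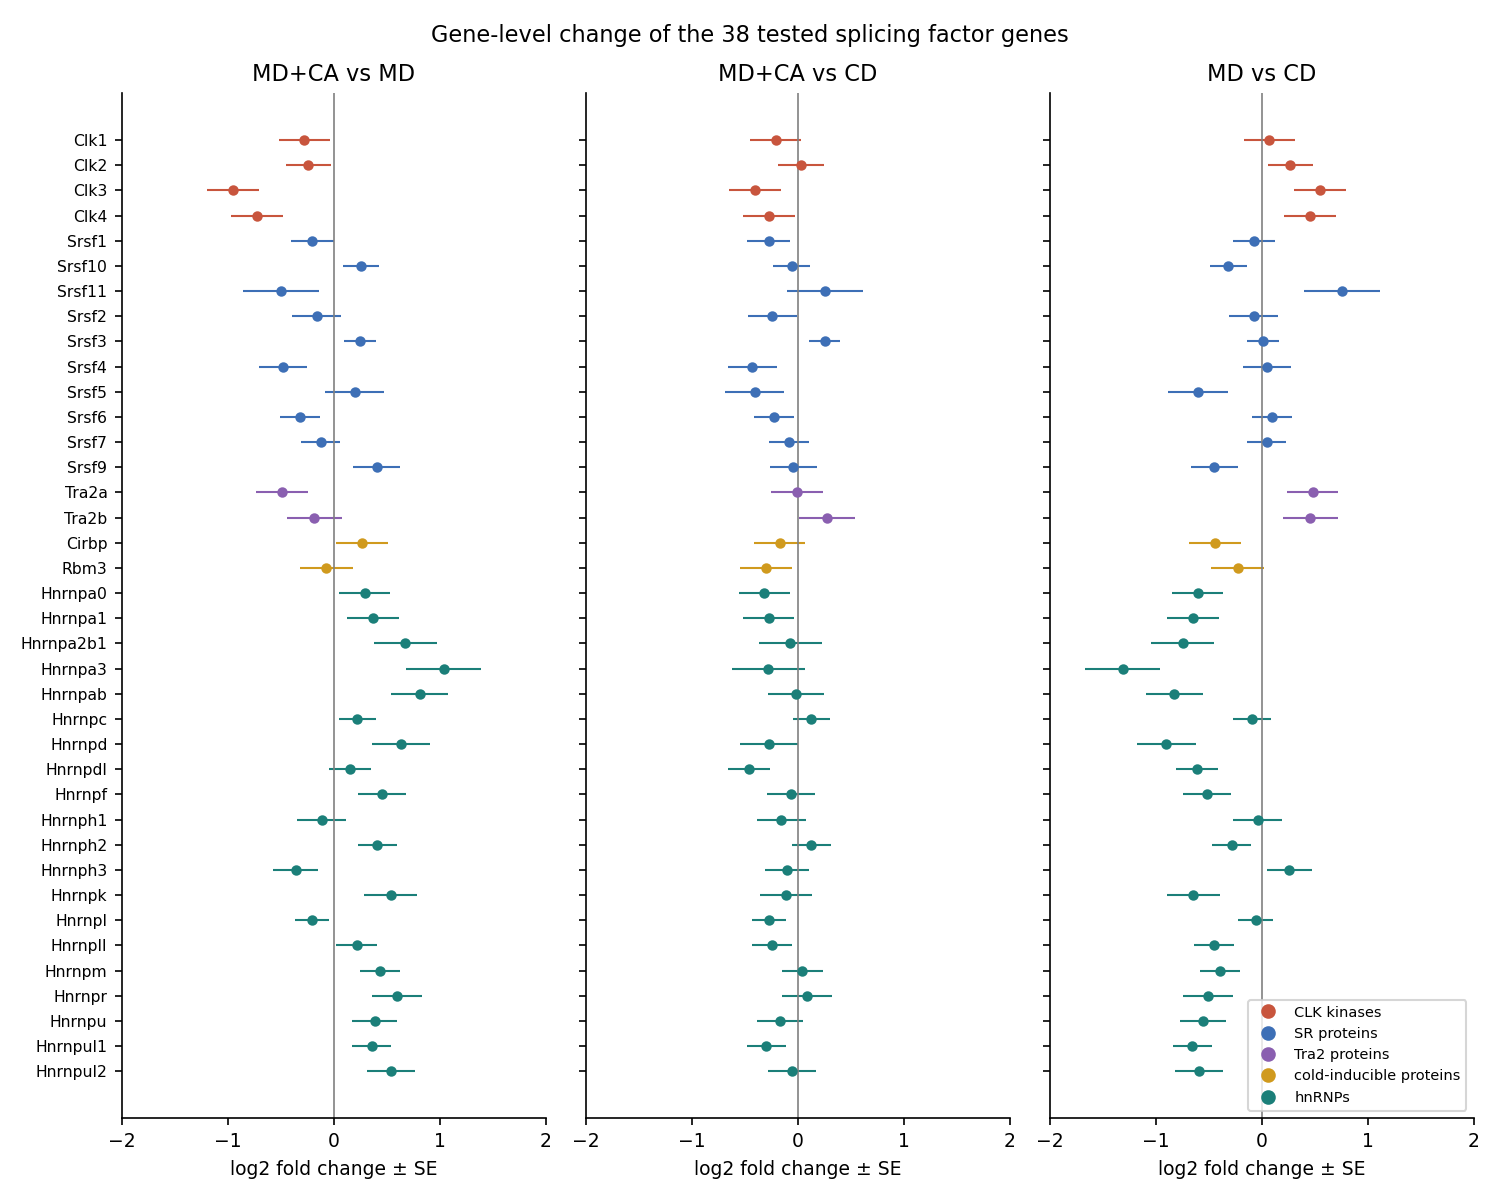
Log2 fold change at the gene level of the 38 tested members, with bars of ± 1 SE, in MD+CA against MD, MD+CA against CD and MD against CD, with families in colour. Most hnRNPs lie above 0 in MD+CA against MD (17 of 20) and below 0 in MD against CD (19 of 20), and all 4 CLK kinases lie on the other side.

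Most hnRNPs, the largest family, lay below the control diet in MD livers, as did Cirbp and Rbm3. Of 20 hnRNPs, 19 had a log2 fold change below 0 in MD against CD, against 46.3% of all genes, and the exception was Hnrnph3. Their median was -0.57, beside 0.04 over all genes tested. At an unadjusted p under 0.05, 14 of the 20 were lower, against 9.4% of all genes, and 0 were higher, against 10.5%. In 11 of 20 every MD library lay below every CD library, against 7.12% of all genes, and in Hnrnph3 every MD library lay above, against 5.99%. In MD+CA against MD, 17 of 20 were above 0 (49.7% of all genes), with a median of 0.40 beside -0.003 over all genes. There 9 of 20 were higher at an unadjusted p under 0.05 (11.6% of all genes), and in 8 of 20 every MD+CA library lay above every MD library (4.99% of all genes). Against CD, the MD+CA median was -0.13, and 1 hnRNP, Hnrnpdl, was lower at an unadjusted p under 0.05 (4.37% of all genes) and 0 were higher (6.16%). Over all members, in MD+CA against CD 1 gene lay wholly higher (Srsf3, 3.48% of all genes) and 2 wholly lower (Clk3 and Hnrnpl, 2.93%).

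Part of these counts moved with a few libraries. With the length allowance as a covariate, 6 hnRNPs were lower in MD against CD at an unadjusted p under 0.05 (5.64% of all genes in that fit) and 1 was higher in MD+CA against MD (7.16%). Without the 3 libraries of shortest allowance the counts were 4 (4.59%) and 2 (7.84%). In MD+CA against MD these counts are thus near the share of all genes. Without CD replicate 2, 6 were lower in MD against CD (5.35%), and 9 were lower without MD replicate 2 (6.71%) or with coding transcripts alone (9.54%). The count of 9 higher hnRNPs in MD+CA against MD was 2 when MD replicate 1 was left out (8.16%), 2 when MD+CA replicate 2 was left out (9.08%) and 4 when MD replicate 2 was left out (9.96%). Across the fits that leave out 1 library the direction held, with 18 or 19 of 20 below 0 in MD against CD. In MD+CA against MD, 17 or 18 were above 0. These fits share most of their libraries, and each keeps most of the libraries of shortest allowance.

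Hnrnpa3 had the lowest unadjusted p of the family in MD against CD. It had 424, 949.8, 451 and 646 CPM in the 4 MD+CA libraries, 307, 212, 397 and 289.6 in MD and 508, 1241, 816 and 432 in CD. All MD libraries lay below all others, and replicate 2 was the highest of both MD+CA and CD. Set against MD, the MD+CA log2 fold change was 1.03 ± 0.35 (SE, adjusted p 0.104, edgeR), and it was -1.31 ± 0.35 (adjusted p 0.115) in MD against CD.

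Hnrnpab, an hnRNP that also binds DNA, had CPM of 283, 325, 293 and 281 in MD+CA, 162, 77.0, 218 and 218 in MD and 294, 326, 287 and 291 in CD. MD+CA and CD covered nearly the same range, and every MD library lay below both. The log2 fold change was 0.81 ± 0.27 (adjusted p 0.0984) in MD+CA against MD and -0.83 ± 0.27 (adjusted p 0.135) in MD against CD, both by edgeR's test over all genes. The means of MD+CA and CD were 295 ± 20.5 and 299.6 ± 18.1 CPM (SD, n = 4 each).

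Hnrnpd, also known as AUF1, which binds AU-rich elements and speeds mRNA decay, had CPM of 202, 360.4, 197 and 208 in MD+CA, 155, 103.1, 189 and 177 in MD and 291, 405, 268 and 204 in CD. MD did not overlap with either group, while MD+CA and CD overlapped. The log2 fold change of Hnrnpd was 0.63 ± 0.28 in MD+CA against MD (edgeR adjusted p 0.185) and -0.90 ± 0.28 in MD against CD (adjusted p 0.128).

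The differences of these 3 hnRNPs kept their sign in the fits that take up fragment length, with larger p. The log2 fold changes of Hnrnpa3, Hnrnpab and Hnrnpd in MD against CD were -0.89, -0.66 and -0.70 with the length allowance as a covariate (edgeR adjusted p 0.348, 0.387 and 0.386). Without the 3 libraries of shortest allowance they were -1.13, -0.46 and -0.67 (adjusted p 0.465, 0.496 and 0.538). Set against MD, the MD+CA values were 0.64, 0.65 and 0.43 with the covariate and 0.99, 0.46 and 0.48 without the 3 libraries.

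Hnrnpa2b1 had CPM of 1202, 1667, 1174 and 1156 in MD+CA, 760.1, 438, 1129 and 935 in MD and 1086, 1947, 1402 and 1038 in CD. MD lay below MD+CA in all libraries but reached into the range of CD. The log2 fold change of Hnrnpa2b1 was 0.67 ± 0.30 in MD+CA against MD (edgeR adjusted p 0.191) and -0.75 ± 0.30 in MD against CD (adjusted p 0.193).

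Hnrnpul1 and Hnrnpdl followed another pattern across the groups. Hnrnpul1, a nuclear hnRNP related to Hnrnpu, had CPM of 40.0, 49.1, 42.2 and 59.8 in MD+CA, 40.5, 33.1, 39.7 and 36.0 in MD and 66.9, 66.9, 52.1 and 49.2 in CD. MD lay below CD throughout and overlapped with MD+CA. Hnrnpdl, a paralog of Hnrnpd, had CPM of 123, 163, 113 and 119 in MD+CA, 116, 107.3, 124 and 119 in MD and 166, 231, 172 and 143 in CD. MD+CA replicate 2 lay inside the range of CD and the other MD+CA libraries inside that of MD, and MD lay below CD throughout. Against CD its log2 fold change was -0.46 ± 0.20 in MD+CA (edgeR adjusted p 0.406) and -0.61 ± 0.20 in MD (adjusted p 0.135).

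**Figure D2:**
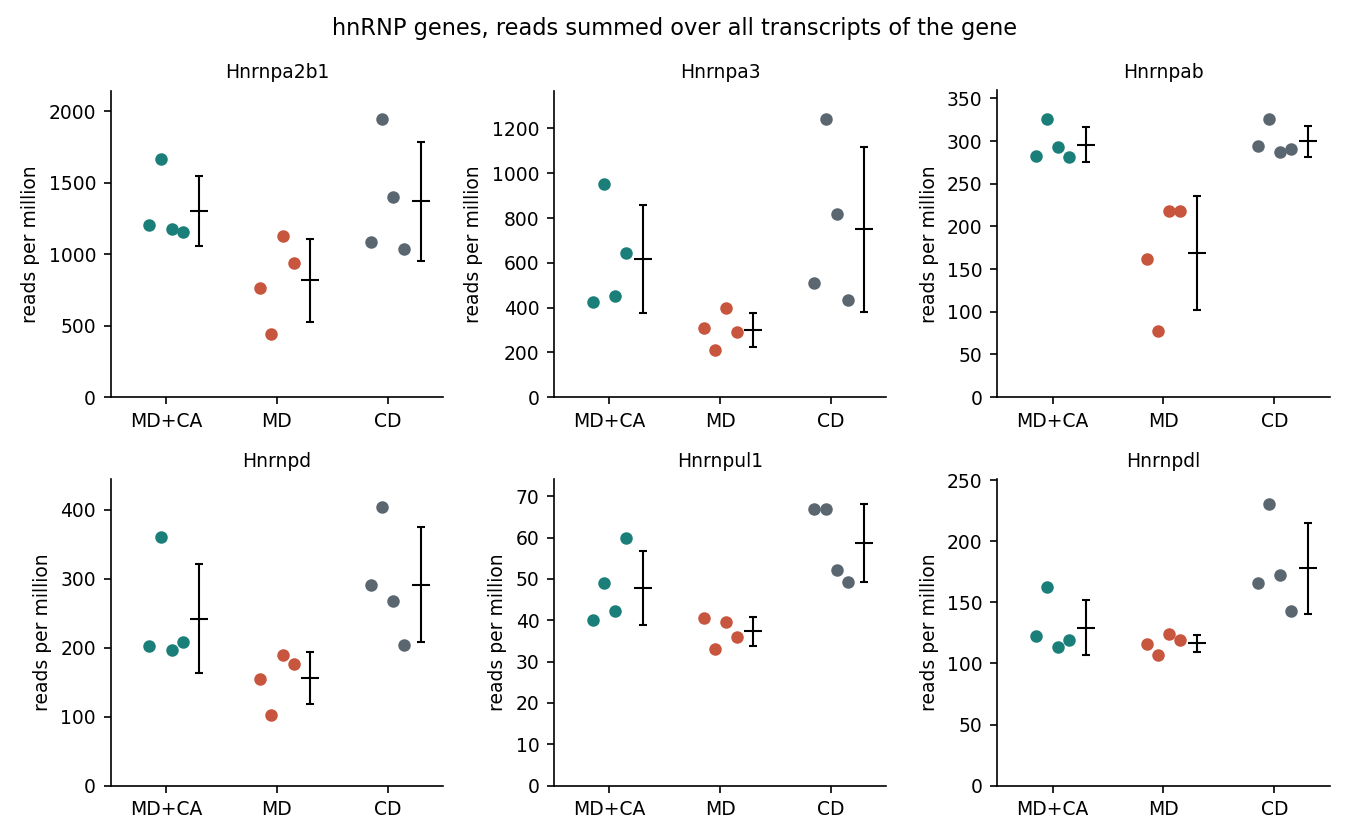
CPM by library of 6 hnRNP genes in MD+CA, MD and CD (points are libraries, bars the mean ± SD of 4). MD lies below both other groups for Hnrnpa3, Hnrnpab and Hnrnpd, while for Hnrnpdl MD+CA (113 to 163) overlaps with MD (107.3 to 124).

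The CLK kinases differed in the direction opposite to the hnRNPs. All 4 had a log2 fold change below 0 in MD+CA against MD and above 0 in MD against CD, with medians of -0.50 and 0.36, where 50.3% and 53.7% of all genes had that direction. For Clk1 and Clk2 this direction did not hold in every fit. With coding transcripts alone, Clk1 was at 0.49 in MD+CA against MD and -0.36 in MD against CD, and Clk2 at 0.18 and -0.18. Without the 3 libraries of shortest allowance, Clk2 was at 0.06 in MD+CA against MD, and Clk1 was at -0.10 in MD against CD. Clk3, a CLK kinase, had CPM of 39.7, 31.8, 29.9 and 33.8 in MD+CA, 65.1, 103.8, 41.1 and 52.1 in MD and 53.0, 42.9, 40.6 and 42.3 in CD. MD+CA lay below both other groups in every library, and MD overlapped with CD. Its log2 fold change was -0.95 ± 0.25 in MD+CA against MD (edgeR adjusted p 0.0519), 0.55 ± 0.25 in MD against CD (adjusted p 0.230) and -0.40 ± 0.25 in MD+CA against CD (adjusted p 0.664). It passed 0.05 in MD+CA against MD with DESeq2 (adjusted p 0.00968). Its edgeR log2 fold change in MD+CA against MD was -0.59 with the length covariate (adjusted p 0.242), -0.55 without the 3 libraries of shortest allowance (adjusted p 0.219) and -0.64 without MD replicate 2 (adjusted p 0.110).

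Clk4, the member closest to Clk1, had CPM of 89.6, 104.2, 86.7 and 88.7 in MD+CA, 131, 251, 106.4 and 123 in MD and 110.2, 123, 103.4 and 109.6 in CD. The lowest MD library stood just above the highest MD+CA library, and the highest value was that of MD replicate 2. The log2 fold change was -0.73 ± 0.24 in MD+CA against MD (edgeR adjusted p 0.102) and 0.46 ± 0.24 in MD against CD (adjusted p 0.303). The value for Clk4 in MD+CA against MD was -0.51 with the length covariate, -0.30 without the 3 libraries of shortest allowance and -0.38 without MD replicate 2. Its value in MD against CD was 0.11 without MD replicate 2. Of all genes, 5.22% had every MD+CA library below every MD library, as Clk3 and Clk4 did. Clk1 and Clk2 summed over all transcripts overlapped between all groups, with Clk1 means of 155 ± 44.6, 188 ± 38.1 and 179 ± 39.5 CPM (SD, n = 4 each) in MD+CA, MD and CD.

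The SR, Tra2 and cold-inducible genes gave mixed values. The 10 tested SR genes had medians of -0.14 in MD+CA against MD and -0.03 in MD against CD. Srsf5, lower in MD than in CD at an unadjusted p under 0.05, had 731, 1208, 571 and 649.9 CPM in MD+CA, 704, 602, 762 and 689.6 in MD and 850.4, 1449.7, 1182 and 709 in CD, and the groups overlapped. In MD against CD it differed by a log2 fold change of -0.60 ± 0.28 (edgeR adjusted p 0.246). Srsf3, among the smallest SR proteins, had 56.7, 51.9, 49.1 and 57.4 CPM in MD+CA, 47.3, 44.6, 47.2 and 42.7 in MD and 43.1, 45.1, 45.1 and 47.5 in CD. MD+CA lay above both other groups, with log2 fold changes of 0.24 ± 0.15 against MD (edgeR adjusted p 0.342) and 0.25 ± 0.15 against CD (adjusted p 0.648). Srsf7, an SR protein with a zinc knuckle, had means of 52.3 ± 9.31, 57.1 ± 9.93 and 55.4 ± 6.04 CPM in MD+CA, MD and CD. Tra2a had means of 58.6 ± 12.4, 82.2 ± 31.4 and 58.9 ± 5.54 CPM in MD+CA, MD and CD, and Tra2b of 78.5 ± 15.8, 89.3 ± 38.6 and 64.9 ± 8.33 in MD+CA, MD and CD (SD, n = 4 each). Each stood highest in MD replicate 2, at 128 and 146 CPM. The log2 fold changes of Tra2a and Tra2b in MD against CD were 0.48 and 0.46 with that library and 0.18 and 0.12 without it.

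Cirbp had means of 16.8 ± 5.36, 14.0 ± 3.23 and 19.0 ± 2.75 CPM in MD+CA, MD and CD (SD, n = 4 each). Its log2 fold change was 0.27 ± 0.24 in MD+CA against MD (edgeR adjusted p 0.536) and -0.44 ± 0.24 in MD against CD (adjusted p 0.321). Rbm3 had means of 46.9 ± 11.1, 49.3 ± 6.10 and 57.7 ± 19.6 CPM in MD+CA, MD and CD. Its log2 fold change was -0.07 ± 0.25 in MD+CA against MD (adjusted p 0.886). For both genes all 3 groups overlapped.

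Splitting the reads of each member by transcript class showed how much of these genes' RNA was not annotated as coding. As means over the 12 libraries, retained-intron transcripts took 58.2% of the reads of Clk1, 49.9% of Clk3, 49.0% of Srsf11, 46.1% of Srsf7, 43.6% of Srsf5 and 40.0% of Hnrnpl. NMD transcripts took 74.6% of the reads of Tra2a, 58.0% of Tra2b, 51.6% of Hnrnpu and 48.3% of Hnrnpa1. Hnrnpa0, Hnrnpab, Hnrnpf and Hnrnph2 had reads on coding transcripts alone. Salmon divides reads that fit several transcripts by an estimate, so class values carry that uncertainty beside the spread between libraries.

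Over all members together, the share of reads on retained-intron transcripts was 12.8, 12.7, 11.7 and 12.3% in MD+CA, 19.8, 21.3, 15.7 and 17.0% in MD and 13.9, 11.8, 13.5 and 14.4% in CD. Every MD library lay above every library of the other groups. Without Srsf5, the largest contributor, the ranges were 9.06 to 9.99% in MD+CA, 11.7 to 16.3% in MD and 9.05 to 10.6% in CD. Among all other genes the shares were 2.71 to 3.85% in MD+CA, 3.17 to 5.22% in MD and 3.10 to 3.57% in CD, and these overlapped. A pooled share weights genes by their reads. Within genes, the median log2 ratio of retained-intron to coding reads in MD against CD was 0.20 in members, beside 0.35 over all genes. It was above 0 in 16 of 27 members and in 64.3% of all genes. In MD+CA against MD the median was -0.43 in members and over all genes.

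The coding reads in MD against CD differed more than the retained-intron reads. The members' retained-intron reads summed to 726 to 1160 CPM in MD+CA, 995 to 1226 in MD and 934 to 1207 in CD, and all 3 ranges overlapped, with means of 890 in MD+CA, 1086 in MD and 1057 in CD. Their coding reads summed to 4801 to 6785 CPM in MD+CA, 3553 to 4490 in MD and 4708 to 7628 in CD, so that MD lay below both. MD replicates 1 and 2, both of short allowance, had the highest shares, at 19.8 and 21.3%. MD replicates 3 and 4, with allowances of 261 and 253 bases, were at 15.7 and 17.0%, and all MD+CA and CD libraries were lower. The part of the length allowance in these shares was not tested. The members' NMD share was 8.18 to 10.1%, 9.17 to 11.4% and 8.06 to 10.98% in MD+CA, MD and CD, without a separation.

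**Figure D3:**
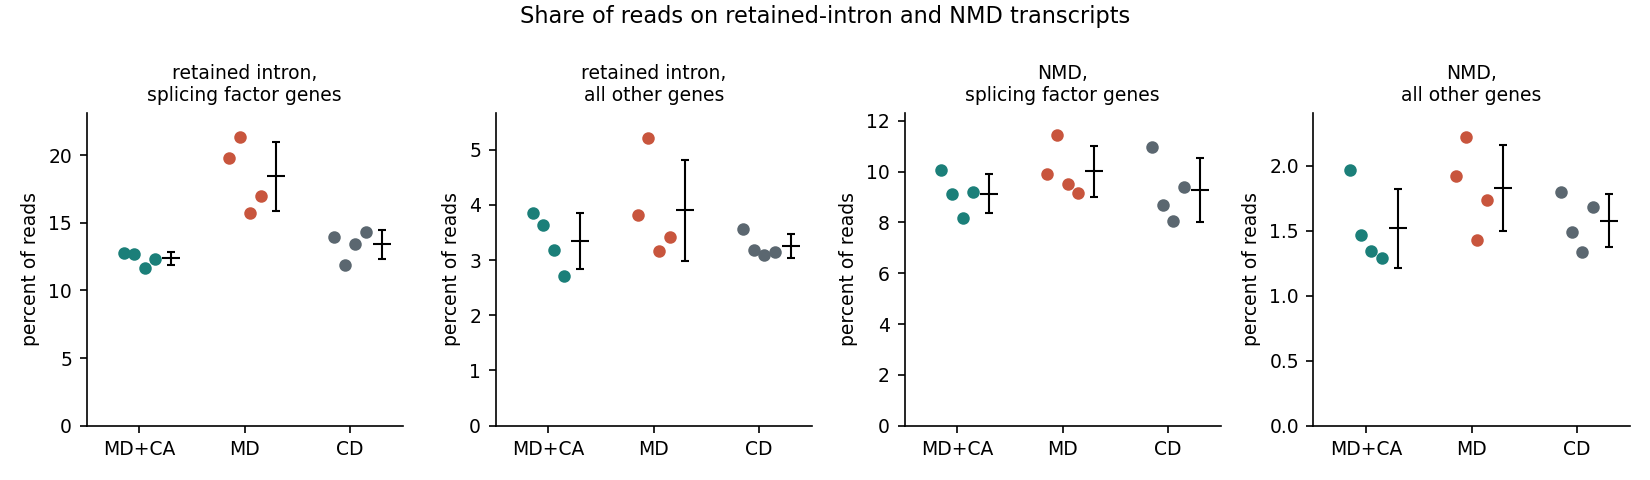
Percent of reads on retained-intron and NMD transcripts, of the 39 splicing factor genes and of all other genes, by library in MD+CA, MD and CD (points are libraries, bars the mean ± SD of 4). The retained-intron share of the splicing factor genes in MD (15.7 to 21.3%) lies above MD+CA (11.7 to 12.8%) and CD (11.8 to 14.4%).

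For the whole library the share on retained-intron transcripts averaged 3.41 ± 0.51% in MD+CA, 3.99 ± 0.92% in MD and 3.33 ± 0.22% in CD (SD, n = 4 each). An exact two-sided permutation test gave p = 0.343 for MD+CA against MD, 0.2 for MD against CD and 0.714 for MD+CA against CD. The NMD share averaged 1.57 ± 0.31% in MD+CA, 1.87 ± 0.33% in MD and 1.64 ± 0.21% in CD, with exact p of 0.257 for MD+CA against MD, 0.257 for MD against CD and 0.686 for MD+CA against CD. Adjusted over the 6 tests, none was below 0.514, and 4 libraries against 4 allow no p below 0.0286.

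One class of 1 member passed the test across all features. The reads of each gene and class were tested as 16629 features, 87 of them from members. In MD+CA against MD, NMD transcripts of Clk1 fell by 3.18 on the log2 scale (SE 0.59, edgeR adjusted p 0.0423), where 0.595% of all features passed. The 12 values were 3.45, 1.83, 3.36 and 2.34 CPM in MD+CA, 30.0, 51.5, 4.96 and 13.2 in MD and 4.24, 3.71, 4.39 and 7.85 in CD. Every MD library lay above every MD+CA library, but MD replicate 3 lay inside the range of CD. Against CD, the log2 fold change was 2.29 ± 0.56 in MD (adjusted p 0.159) and -0.89 ± 0.57 in MD+CA (adjusted p 0.842).

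This call did not hold in most other fits. With the length allowance as a covariate the fold change was -2.16 (edgeR adjusted p 0.184), without the 3 libraries of shortest allowance -1.86 (adjusted p 0.229) and without MD replicate 2 -2.55 (adjusted p 0.0775). It passed in 1 of 12 fits that leave out 1 library, the fit without MD replicate 3 (adjusted p 0.0176), and in the others the adjusted p reached at most 0.119. DESeq2 called it (adjusted p 9.66e-06). The other Clk1 classes did not pass in MD+CA against MD: coding transcripts averaged 67.1 ± 18.2, 45.1 ± 12.4 and 61.1 ± 18.5 CPM in MD+CA, MD and CD, and retained-intron transcripts 82.4 ± 27.8, 114 ± 16.0 and 109 ± 24.2 CPM in MD+CA, MD and CD (SD, n = 4 each).

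Of the remaining classes, Srsf3 coding transcripts came nearest to the threshold. They had 37.6, 32.9, 39.1 and 33.4 CPM in MD+CA, 22.7, 18.0, 23.9 and 19.3 in MD and 22.8, 25.5, 25.6 and 29.9 in CD. MD+CA lay above both other groups in every library. The log2 fold change was 0.77 ± 0.16 in MD+CA against MD (edgeR adjusted p 0.0538) and 0.46 ± 0.16 in MD+CA against CD (adjusted p 0.408). DESeq2 called it in MD+CA against MD (adjusted p 0.000456). The edgeR value was 0.76 with the length covariate (adjusted p 0.108) and 0.70 without the 3 libraries of shortest allowance (adjusted p 0.258). Srsf3 NMD transcripts had 2.69, 3.21, 0.594 and 10.9 CPM in MD+CA, 11.2, 11.3, 8.50 and 8.94 in MD and 3.52, 7.99, 3.97 and 5.04 in CD. MD lay above CD throughout and overlapped with MD+CA through MD+CA replicate 4 alone.

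**Figure D4:**
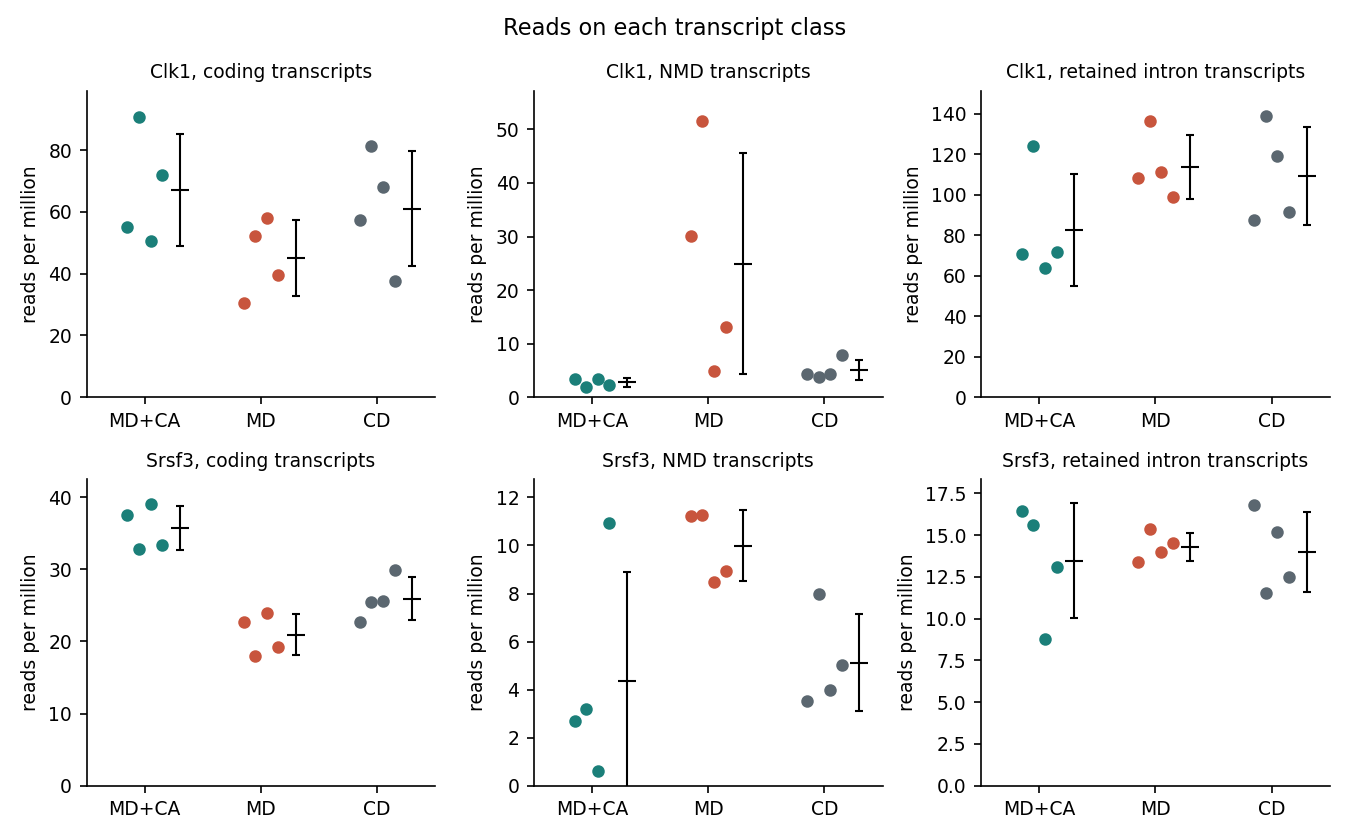
CPM on coding, NMD and retained-intron transcripts of Clk1 and Srsf3, by library in MD+CA, MD and CD (points are libraries, bars the mean ± SD of 4). Clk1 NMD reads are highest in MD replicate 2 (51.5) and MD replicate 1 (30.0), and Srsf3 coding reads in MD+CA (32.9 to 39.1) lie above MD (18.0 to 23.9) and CD (22.8 to 29.9).

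Hnrnpl NMD transcripts had 2.47, 0.734, 0.565 and 0.618 CPM in MD+CA, 21.2, 12.9, 4.34 and 10.3 in MD and 1.94, 0.234, 1.02 and 7.61 in CD. MD lay above MD+CA throughout and overlapped with CD. The log2 fold change was -3.47 ± 0.87 in MD+CA against MD (edgeR adjusted p 0.0812) and 2.16 ± 0.80 in MD against CD (adjusted p 0.201). The MD+CA against MD value was -2.71 with the length covariate (adjusted p 0.203) and -3.54 without the 3 libraries of shortest allowance (adjusted p 0.269). Hnrnpu NMD transcripts ran the other way, with log2 fold changes of 0.79 ± 0.26 in MD+CA against MD (edgeR adjusted p 0.137) and -0.93 ± 0.27 in MD against CD (adjusted p 0.173). Hnrnpu is a large hnRNP of the nuclear scaffold.

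In MD against CD 0 of 87 member classes passed edgeR's adjusted test, as did 0% of all features, and in MD+CA against CD 0 of 87 passed, where 0.132% of all features did. At an unadjusted p under 0.05, 12 member classes were higher (10.3% of all features) and 10 lower (10.1%) in MD+CA against MD. The counts were 7 higher (9.03%) and 18 lower (9.35%) in MD against CD, and 1 higher (4.37%) and 5 lower (3.51%) in MD+CA against CD. Classes whose groups did not overlap numbered 8 higher (4.45%) and 6 lower (4.81%) in MD+CA against MD, 3 higher (5.51%) and 12 lower (7.29%) in MD against CD, and 1 higher (2.67%) and 7 lower (2.57%) in MD+CA against CD. DESeq2 called 8 member classes in MD+CA against MD (6.51% of all features with an adjusted p), 5 in MD against CD (3.15%) and 0 in MD+CA against CD (1.33%).

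The ratio of a class to the coding transcripts of its own gene removes the gene's overall level. With limma on 4271 such log2 ratios, 49 from members, 0 passed the adjusted test in any comparison, among members or all genes. The unadjusted counts in MD+CA against MD were 9 lower, where 12.5% of all ratios were, and 1 higher (3.49%). In MD against CD they were 6 higher (13.2%) and 1 lower (4.17%), and in MD+CA against CD 1 lower (1.29%) and 0 higher (0.96%). Ratios whose groups did not overlap numbered 9 lower (4.75%) and 1 higher (1.38%) in MD+CA against MD. They numbered 3 higher (8.36%) and 0 lower (2.55%) in MD against CD, and 0 higher (0.539%) and 1 lower (1.17%) in MD+CA against CD. The median ratio of the members was -0.39 in MD+CA against MD, beside -0.43 over all ratios, and 0.11 in MD against CD, beside 0.37. Without the 3 libraries of shortest allowance, 3 were lower in MD+CA against MD (4.87% of all ratios) and 0 higher in MD against CD (3%). EdgeR's diffSpliceDGE called 2 member classes in MD+CA against MD, the NMD classes of Clk1 and Hnrnpl (0.398% of all classes), and 1 in MD against CD, that of Clk1 (0.913%).

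Among the members' ratios, those of Clk1, Srsf3 and Hnrnpl held the lowest unadjusted p values in MD+CA against MD. The Clk1 NMD ratio differed by -3.30 ± 0.79 (limma adjusted p 0.224) and its retained-intron ratio by -1.08 ± 0.26 (adjusted p 0.226). The Hnrnpl NMD ratio differed by -3.78 ± 0.93 (adjusted p 0.228), and the Srsf3 NMD ratio by -2.59 ± 0.72 (adjusted p 0.281). The Srsf5 retained-intron ratio differed by -1.20 ± 0.40 (adjusted p 0.295) in MD+CA against MD and by 1.03 ± 0.40 (adjusted p 0.254) in MD against CD.

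For the exons printed above, single transcripts were compared by the NMD transcript's share of the TPM of itself and the leading coding transcript. Reads over the exons themselves were not counted. Clk1-210 took 6.88, 2.40, 7.48 and 3.72% in MD+CA, 53.6, 53.6, 9.36 and 28.03% in MD and 8.06, 5.24, 7.27 and 18.3% in CD. MD lay above MD+CA throughout, and its 2 highest libraries were those of shortest fragments. Of the 3 libraries with short fragments, MD+CA replicate 1 stood at 6.88%, inside the range of its own group. It was also inside that range for Srsf3-201, at 7.23%. For Hnrnpl-213 it was the highest of its group, at 9.46% against 1.83 to 3.30%. The part of fragment length in these shares was not tested.

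Clk2-204, which lacks the corresponding exon of Clk2, took 46.1, 61.4, 54.5 and 33.4% in MD+CA, 60.7, 75.9, 55.7 and 53.2% in MD and 46.1, 39.1, 39.6 and 41.9% in CD. MD lay above CD in every library and overlapped with MD+CA. On the TPM scale the skipped form was a larger part of its pair in Clk2 than in Clk1 in all 12 libraries.

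Srsf3-201, with its poison exon, took 7.23, 9.63, 1.57 and 25.3% in MD+CA, 34.8, 40.4, 27.5 and 33.1% in MD and 14.5, 25.4, 14.2 and 15.3% in CD. All MD libraries lay above all others. Hnrnpl-213 took 9.46, 3.30, 1.83 and 1.92% in MD+CA, 54.6, 43.7, 16.9 and 33.3% in MD and 6.53, 1.01, 4.06 and 20.9% in CD. MD lay above MD+CA throughout, while CD replicate 4 reached above MD replicate 3.

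Srsf6-201, the NMD transcript of the SR protein Srsf6 with an added exon of 268 bases, took 8.94 to 19.2% in MD+CA, 11.4 to 35.0% in MD and 6.61 to 17.3% in CD, and the groups overlapped. Tra2a-202 averaged 82.0 ± 15.3, 86.7 ± 21.2 and 94.6 ± 6.34% in MD+CA, MD and CD, and Tra2b-206 76.6 ± 11.8, 75.5 ± 6.78 and 75.3 ± 11.2% in MD+CA, MD and CD (SD, n = 4 each). In both Tra2 genes the NMD transcript thus took most of the pair's TPM in every library, with overlap between all groups. Tra2a-202 stood at 100% in CD replicates 2 and 3, MD replicates 3 and 4 and MD+CA replicate 2. There the estimate gave the leading coding transcript, Tra2a-201, next to nothing. Tra2a has 2 coding transcripts, so 100% does not mean that the gene had no coding reads.

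Of 22 members with such a pair for NMD, the share of 3 (Clk1, Hnrnpl, Srsf3) lay wholly lower in MD+CA than in MD, against 3.04% of the 1087 pairs of all genes, and that of 1 (Hnrnpu) wholly higher, against 1.93%. In MD against CD the share of 2 (Clk2, Srsf3) lay wholly higher, against 4.97% of all pairs, and that of 0 wholly lower (2.94%). Between MD+CA and CD the share of 0 of 22 separated in either direction, beside 1.01% of all pairs higher and 0.46% lower.

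**Figure D5:**
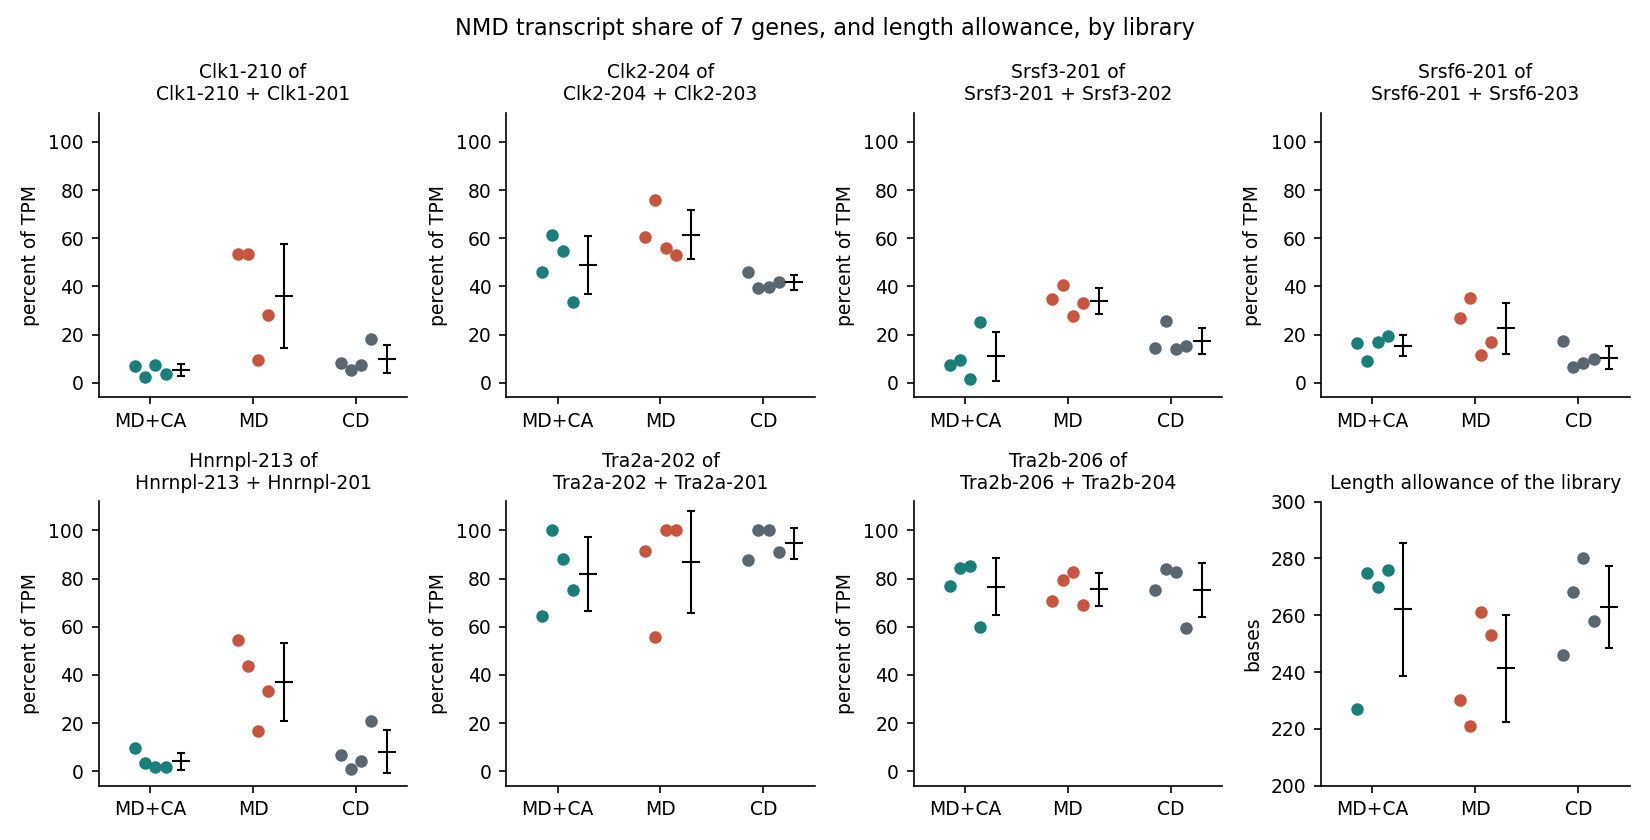
Percent of TPM taken by the NMD transcript, of the sum of it and the leading coding transcript, for 7 genes, and the length allowance in bases, by library in MD+CA, MD and CD (points are libraries, bars the mean ± SD of 4). Srsf3-201 in MD (27.5 to 40.4%) lies above both other groups, and Tra2a-202 and Tra2b-206 are high in all 3 groups. The axis of the length allowance starts at 200 bases.

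Retained introns of single members were set against the leading coding transcript in the same way. Srsf5-212, which keeps 1 intron of 1229 bases, took 37.5, 23.0, 25.8 and 33.3% of its pair's TPM in MD+CA, 55.2, 47.2, 35.3 and 43.8% in MD and 39.0, 22.8, 27.97 and 44.1% in CD, and MD overlapped with both. Clk1-204, which keeps 3 introns of 87, 387 and 871 bases, took 36.7, 40.0, 37.2 and 34.2% in MD+CA, 55.3, 47.9, 46.4 and 47.6% in MD and 37.2, 45.1, 47.6 and 50.0% in CD. MD lay above MD+CA in every library and overlapped with CD. Srsf7-207, which keeps 1 intron of 874 bases, averaged 50.1 ± 5.69, 44.0 ± 3.73 and 51.7 ± 7.28% in MD+CA, MD and CD (SD, n = 4 each). Of 27 members with such a pair, 2 (Clk1, Hnrnpll) lay wholly lower in MD+CA than in MD, against 4.87% of 2485 pairs of all genes, and 1 (Clk4) wholly higher, against 1.57%. In MD against CD 1 (Hnrnpk) lay wholly higher, against 8.49%, and 1 (Clk3) wholly lower, against 3.54%, and between MD+CA and CD 0 separated, beside 0.604% higher and 1.25% lower.

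Other genes of the splicing pathway were described by lists chosen by role. In 10 U1 and Sm protein genes, 13 of the U2 particle and 3′ splice site, 10 of the tri-snRNP, 9 SR kinase and speckle genes and 23 other splicing regulators, 0 passed edgeR's adjusted test in any comparison. At an unadjusted p under 0.05, 1, 4, 3, 0 and 5 of them were higher and 0, 1, 0, 0 and 2 lower in MD+CA against MD, beside 11.6% of all genes in each direction. The counts in MD against CD were 0, 1, 0, 0 and 1 higher (10.5% of all genes) and 1, 0, 3, 0 and 3 lower (9.4%). Their medians in MD+CA against MD were 0.31, 0.33, 0.27, -0.16 and 0.10, and in MD against CD -0.05, -0.16, -0.33, 0.09 and -0.10. Of 15 genes of NMD and the exon junction complex, 2 were higher in MD+CA against MD (11.6% of all genes) at an unadjusted p under 0.05. In MD against CD 4 of them were lower (9.4%). The adjusted test called 1, Upf3a, a paralog of the NMD factor Upf3b, which rose in MD+CA against MD, where 2.71% of all genes passed. It had 83.4, 94.9, 104.7 and 73.0 CPM in MD+CA, 42.8, 45.4, 59.1 and 46.3 in MD and 66.6, 97.2, 88.4 and 56.1 in CD. Every MD library lay below every MD+CA library. Its log2 fold change was 0.88 ± 0.21 in MD+CA against MD (edgeR adjusted p 0.0409) and -0.67 ± 0.21 in MD against CD (adjusted p 0.131). Its value in MD+CA against MD was 0.75 with the length covariate (adjusted p 0.114) and 0.78 without the 3 libraries of shortest allowance (adjusted p 0.216). With 1 library left out, its adjusted p ran from 0.0296 without MD replicate 3 to 0.119 without MD replicate 1. Of 10 heat shock factor targets and 3 nuclear-retained RNAs, 0 passed edgeR's adjusted test in any comparison. In MD+CA against MD 3 and 0 of them had an unadjusted p under 0.05, beside 23.2% of all genes. Of 17 clock genes, 9 passed in MD+CA against MD (2.71% of all genes), 1 higher and 8 lower. In MD+CA against CD 5 passed (0.528%), 1 higher and 4 lower. The part of the clock genes in the values of the members was not tested.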

How the data were processed

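Estimated counts per transcript and TPM were taken from the 12 deposited tables, in which the counts are not normalized and TPM is scaled for length and depth within a library, per the file headers. Per the submitters' processing notes, the tools were fastp, Salmon 1.10.3 and DESeq2 and the build GRCm39, while strandedness and annotation version are not stated there. The reference used here is of build GRCm38, so exon positions are those of the matched M21 transcripts and may differ from the authors' build.

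Members and lists were chosen with earlier results of these data known. Named throughout were Cirbp, Rbm3, Clk1, Clk4, Srsf3, Srsf5, Srsf7, Tra2a, Tra2b, Hnrnpd and Hnrnpa2b1, and any member past the threshold; every other gene was named after its values were seen.

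Counts were summed per gene, and per gene and class, rounded, filtered (filterByExpr, minimum count 10), TMM-scaled and tested with edgeR 4.0.16 quasi-likelihood F tests in 1 model of 3 group means over 12 libraries, with 9 residual degrees of freedom and a common biological coefficient of variation of 0.308 for genes. Log2 ratios of class to coding reads, with 0.5 reads added to each and a mean of at least 10 reads in both, were tested with limma 3.58.1. P-values were Benjamini-Hochberg adjusted over all features, with a threshold of 0.05. Library shares were compared with exact permutation tests. Alternatives used other scalings, filters and pseudocounts, a length offset, coding transcripts alone, the length allowance as covariate, the compared groups alone, each library left out, a replicate block, DESeq2 1.42.0, voom and diffSpliceDGE. Leaving out the 3 libraries of shortest allowance was chosen after seeing the data. The steps were tested on simulated counts with less spread than these data and no difference in fragment length. Only features of higher counts were changed there, so that test does not cover classes with few reads. R 4.3.3, Python 3.11.15, numpy 2.4.6, pandas 2.3.3, scipy 1.17.1 and matplotlib 3.10.9 were used.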

Additional observations from a re-analysis of the deposited data

Results flagged for a closer look

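In 7 of 123 groups of 4 libraries, 1 library stood apart by Dixon's test at the 95% level, and chance alone flags about 1 group in 20. MD+CA replicate 2 was high for Hnrnpa2b1, at 1667 CPM against 1156 to 1202 in the other 3 libraries of its group. It was high for Hnrnpd, at 360.4 CPM against 197 to 208, and for Clk4, at 104.2 CPM against 86.7 to 89.6. MD replicate 2 was high for Clk2, at 65.2 CPM against 36.1 to 39.3, and for the share of Hnrnpa2b1-207, an NMD transcript, at 17.9% against 9.82 to 10.6%. CD replicate 2 was high for the share of the poison exon transcript Srsf3-201, at 25.4% against 14.2 to 15.3%. MD+CA replicate 1 was short in length allowance, at 227 bases against 270 to 276.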

How the results depend on the processing

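The count of members past edgeR's threshold at the gene level was 0 in each comparison. In MD against CD it was 1 without the low-count filter (1.77% of all genes), 5 with DESeq2 (4.82%) and 1 with voom (2.74%). In MD+CA against MD it was 1 with upper-quartile scaling (2.93%), without the filter (3.75%), with coding transcripts alone (2.01%) or with the replicate block (4.87%). There it was 4 with DESeq2 (8.36%) and 0 to 2 with 1 library left out (0.786 to 6.93%). The single class called in MD+CA against MD (Clk1 NMD) gave way to 0 classes with the replicate block (log2 -2.94, adjusted p 0.0682), the length covariate, without the 3 libraries of shortest allowance or with only the 2 compared groups (log2 -3.19, adjusted p 0.110). In these fits 0.475, 0.204, 0.0862 and 0.0252% of all features passed, in that order. With DESeq2 8 classes were called (6.51% of all features), and 0 to 4 with 1 library left out (0.106 to 2.32%). In MD against CD DESeq2 called 5 classes (3.15% of all features). For ratios, diffSpliceDGE called 1 in MD against CD (0.913% of all) and 2 in MD+CA against MD (0.398%). In the latter, leaving out 1 library in the limma fit gave 0 to 1 (0 to 0.89%). The difference in the whole-library retained-intron share of MD+CA against CD, 0.0808 percentage points, ran from -0.0861 without MD+CA replicate 1 to 0.291 without MD+CA replicate 4, and was -0.0211 without MD+CA replicate 2. The cause of these moves was not tested. For the 99 single genes, classes and ratios with an unadjusted p under 0.05, 1977 of 2028 values under the alternatives kept their direction and side of the threshold, 36 passed it newly and 15 no longer passed. These 99 were picked by p in the same data, and only Clk1 NMD in MD+CA against MD passed the threshold in the main fit. For the others, keeping their side meant staying uncalled. All 15 values that no longer passed were those of Clk1 NMD. Replicate numbers may pair some libraries, and the main fits did not use them. Of 12 libraries, 10 correlated best with a library of their own number. Of 12 same-numbered pairs, 8 correlated over 0.1 (r from -0.08 to 0.35). Pairs with different numbers ran from -0.40 (MD replicate 3 with MD+CA replicate 1) to 0.31 (CD replicate 4 with MD+CA replicate 1). With the replicate number as a block, edgeR's adjusted test called 4.87% of all genes in MD+CA against MD, beside 2.71% without it. Among class features the shares were 0.475% with the block and 0.595% without it. What the replicate numbers stand for was not tested. At 9089586 to 14492587 reads per library, classes with few reads, such as Hnrnpl NMD, are the least precise.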
